A study of Rattus norvegicus with 8 samples.

Results

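The growth hormone receptor and the insulin-like growth factor (IGF) axis were followed in the livers of rats fed an extract of persimmon peel. The 10 genes were Ghr, Jak2, Stat5a, Stat5b, Socs2, Igf1, Igfals, Igfbp1, Igfbp2 and Igfbp3, out of 14217 genes named on the array, and every probe set that the platform annotation gives to exactly 1 of them was taken, 14 in all. The genes were chosen by their place in the pathway, with 1 measured value in view: a probe set of Ghr had one of the smallest p of the comparison of the diets in earlier results of these data. The differences between the diets in these 10 genes are therefore given as a description. Where calls by adjusted p are named for them, nothing is concluded from those calls.

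The animals were 8 males of the Goto-Kakizaki strain, inbred rats that become diabetic without obesity, and they were 18 weeks old. For 12 weeks 4 rats ate AIN-93G, a purified rodent diet, and the other 4 ate AIN-93G containing the extract, whose dose is not given in the sources used here. Each liver was measured on 1 single-colour expression array. No group of another strain was measured, so the diets were compared within diabetic rats alone.

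Growth hormone from the pituitary binds its receptor, encoded by Ghr, on hepatocytes. The receptor activates the kinase JAK2, which phosphorylates the transcription factors STAT5A and STAT5B, and these switch on Igf1, Igfals and the feedback inhibitor Socs2. The liver is the main source of circulating IGF1, most of which travels in a complex with IGFBP3 and the acid-labile subunit, the product of Igfals, while IGFBP1 and IGFBP2 bind smaller amounts and insulin represses Igfbp1.

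Signals are deposited intensity values on a linear scale, and each is read only against the same probe set on other arrays. The brightest value among the 27 sets for bacterial controls was 14.5 units. A difference is the mean log2 signal on the persimmon peel diet minus that on the control diet, with its moderated standard error (SE), and a probe set is called when its Benjamini-Hochberg adjusted p in limma, over 15521 tested sets, is under 0.05. Array medians lay between 33.2 and 39.2 units, highest on persimmon peel array 3. All 9 hepatocyte markers measured were well above the bacterial controls, and their summed signal was 90727 to 97823 on the control diet and 83448 to 89225 on the persimmon peel diet. The sum over 9 Kupffer cell markers was 6230.5 to 8137 and 6979 to 11322, and that over 9 sinusoidal endothelial markers was 5589 to 6061 and 4749.7 to 5993. Tested markers numbered 9 for each of these types, 8 for stellate cells, 1 for cholangiocytes, 2 for lymphocytes and 2 for erythroid cells. Of them 1 was called, the endothelial Fc receptor gene Fcgr2b (difference -0.42, SE 0.08, adjusted p = 0.009 in limma). Over all tested genes 1.93% were called lower and 0.469% higher, so nothing is read from this call. Of the other endothelial markers Pecam1 (0.27), Stab1 (0.17) and Eng (0.12) were higher and the rest lower, none of them called. The part of the shifts of these markers in the values below was not tested, nor was the part of array scaling in the shifts. In whole liver fewer cells of a type and less RNA per cell cannot be told apart.

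Ghr had the largest difference of the 10 genes, and its probe sets differed in size though not in direction. On 1368924_at, designed from the receptor's reference mRNA, the control livers had signals of 1984, 1844, 1805 and 2268, and the persimmon peel livers had 889.8, 1315, 767.5 and 975.1. Every persimmon peel liver lay below every control liver. The means were 1975 ± 210.1 (SD, n = 4) and 987 ± 235 (SD, n = 4), a difference of -1.02 (SE 0.14), or 49.2% of the control level by geometric means, as are the percentages of control below. On 1373803_a_at, designed from an expressed sequence tag, the control livers had 5120.3, 4760.3, 5079 and 5352, and the persimmon peel livers had 4237, 4065, 4689 and 4710.2. Again the diets did not overlap, but the gap between the lowest control and the highest persimmon peel liver was small. The means were 5078 ± 243 and 4425 ± 324 (SD, n = 4 each), a difference of -0.20 (SE 0.07), or 87.1% of the control level. Alternative splicing of rat Ghr also makes a soluble growth hormone binding protein, and which transcripts each set detects was not analysed here.

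**Figure D1:**
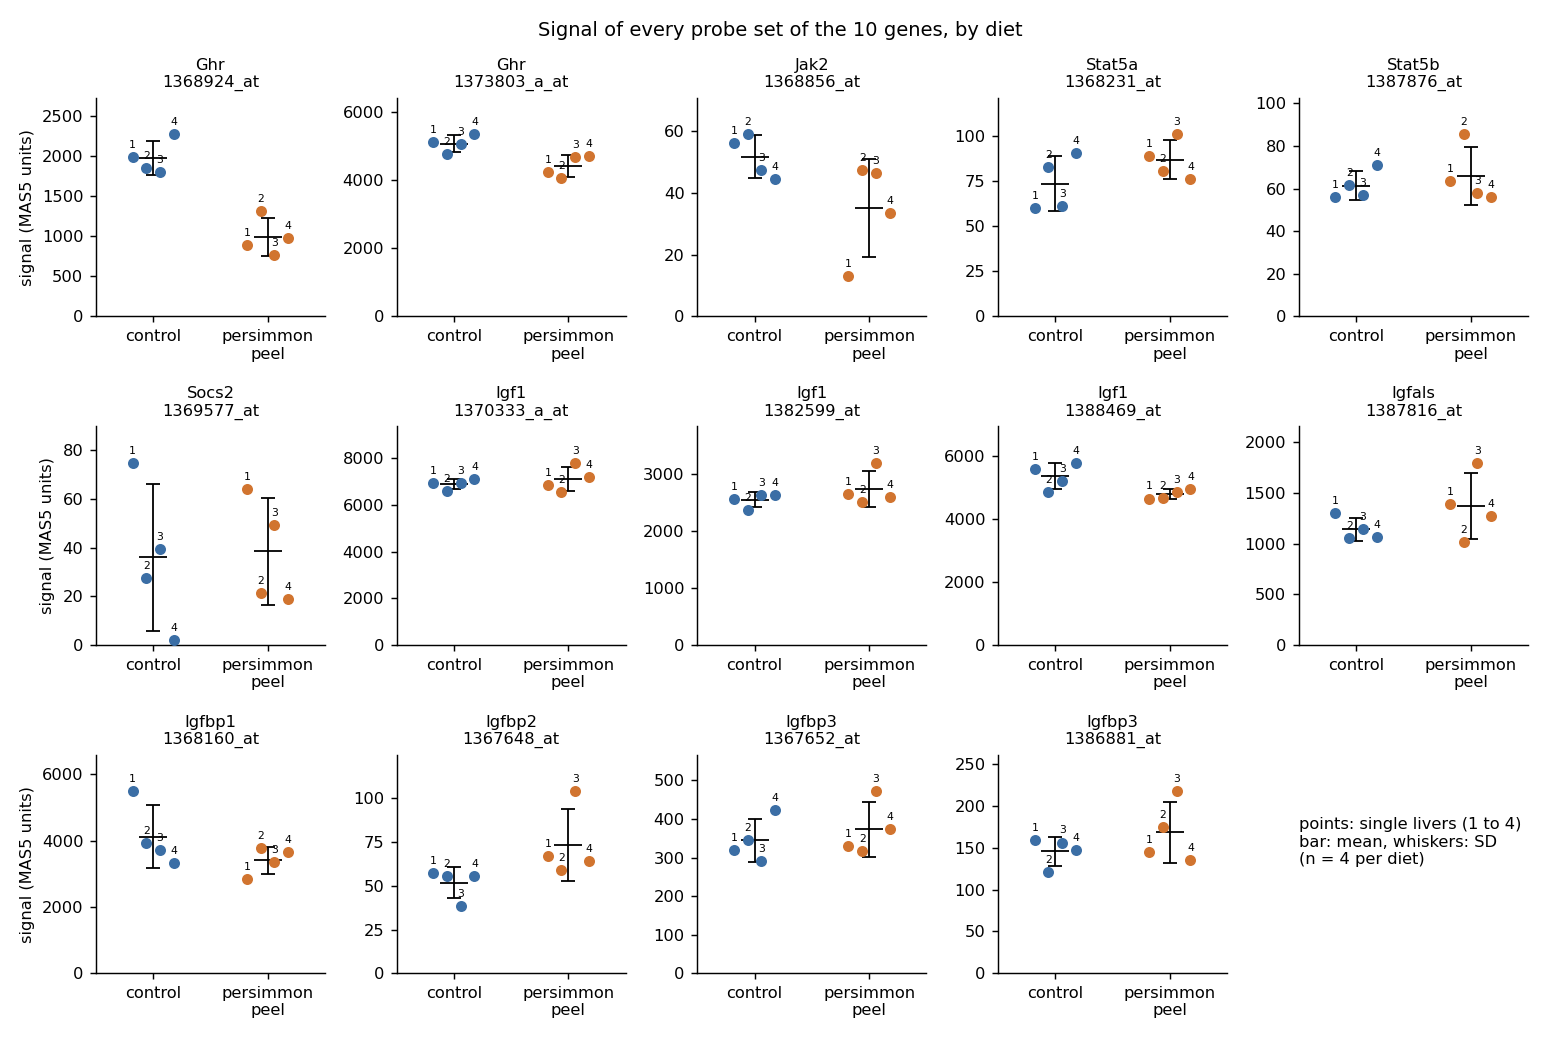
Signal of all 14 probe sets in each liver (points, numbered 1 to 4 within a diet), on linear axes from 0, with the mean and SD of each diet. The diets are apart on both Ghr sets and on Igfbp2, and overlap on the other 11 sets.

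Among the 13 tested probe sets of the axis, 1 was called lower, 1368924_at of Ghr, and 0 were called higher, where 4.53% of all tested sets were called lower and 0.425% higher. Both Ghr sets lay wholly below the control livers, which 10% of all tested sets did, and Igfbp2 lay wholly above them, which 2.87% did. The median difference of the 13 sets was 0.09, against -0.0071 over all tested sets. The small p of 1368924_at was known when the genes were chosen, so its call was fixed by that choice and nothing is read from these counts. Of all tested sets, 88 had a more negative difference than 1368924_at and 3181 a more negative one than 1373803_a_at.

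**Figure D2:**
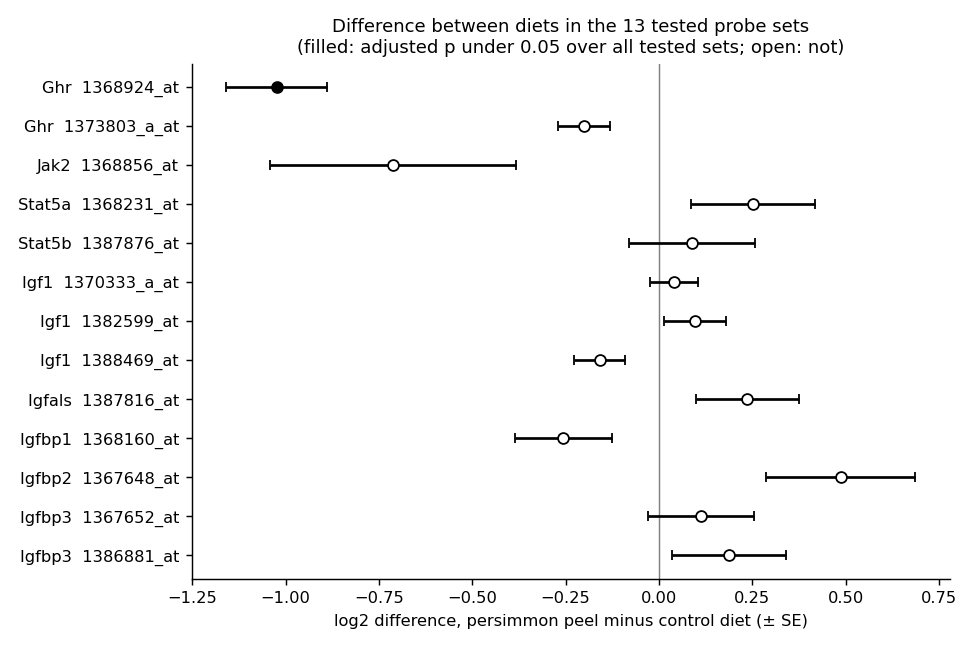
Difference between the diets (log2, persimmon peel minus control, with SE) for the 13 tested sets, with the called set filled. The set 1368924_at of Ghr stands at -1.02, while the other 12 sets lie between -0.71 and 0.49.

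The size of the Ghr difference depended on the arrays used, and its direction was negative in all 18 other settings. On 1368924_at the difference ran from -1.17 without persimmon peel array 2 to -0.91 without persimmon peel array 3 when arrays were left out singly. It was -0.80 (SE 0.13) without persimmon peel arrays 1 and 3 together. The beta-actin control sets, which read the middle and the 3' end of 1 transcript, gave a log2 ratio of -0.76 ± 0.02 in control livers and -1.06 ± 0.11 in persimmon peel livers (SD, n = 4 each), and no livers of the diets overlapped. In a fit that took this ratio as a covariate, and in which diet and ratio are hard to part, the difference on 1368924_at was -0.34 (SE 0.28). It was not called there, but all tested sets of the axis had the same adjusted p in that fit. The lost call is therefore not particular to Ghr, and nothing is read from it. The set 1373803_a_at was -0.31 (SE 0.18) in that fit. Both values are imprecise there, so nothing is read from their closeness. Under quantile normalization 1373803_a_at moved to -0.11 (SE 0.05) while 1368924_at stayed at -0.96 (SE 0.16).

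**Figure D3:**
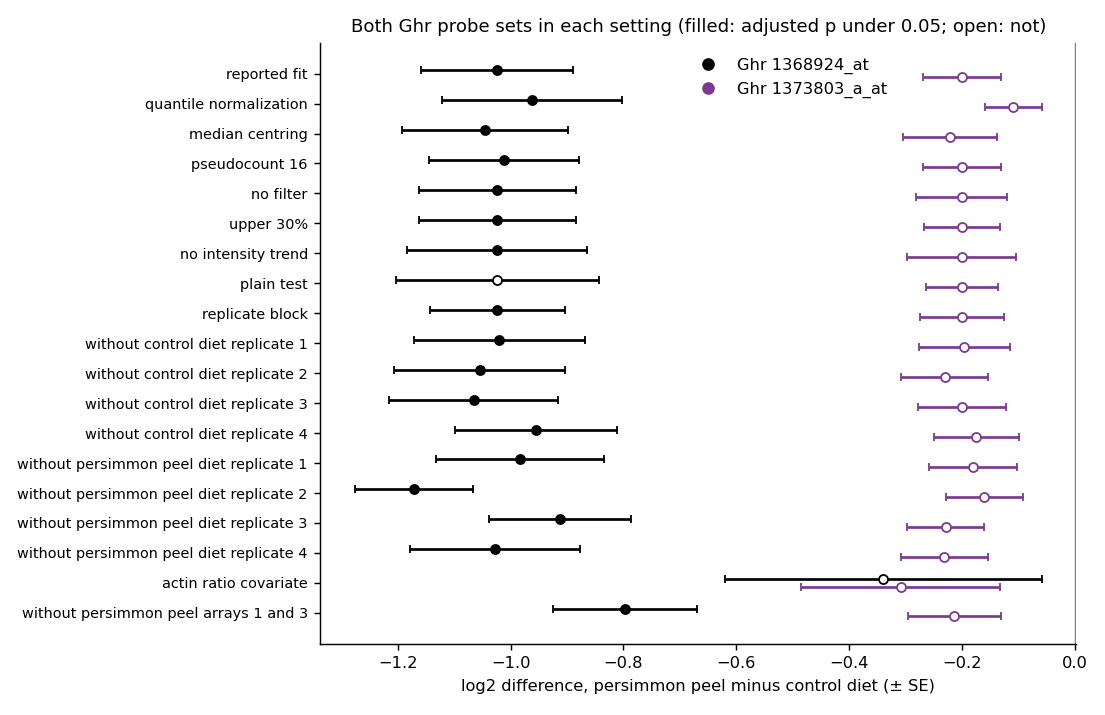
Difference between the diets (log2, with SE) for both Ghr sets in the reported fit and the 18 other settings, filled where the adjusted p is under 0.05. The set 1368924_at lies between -1.17 and -0.34 and the set 1373803_a_at between -0.31 and -0.11. Settings that change only the SE or the choice of tested sets leave the difference as in the reported fit.

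Promoter windows from RefSeq on the rat assembly GRCr8, from 250 bases before to 50 after the annotated start, were matched by symbol for 9 of the 10 genes. Socs2 had no matched window. Both strands were searched for TTCNNNGAA, the STAT5 site, for CAAAACA, one arm of the insulin response element, and for GTAAACA, a FOXO site. Of 33469 windows of this length, 8.87%, 6.28% and 3.78% held them. Only CAAAACA was found among the 9, in Igf1 at bases -67 to -61 and in Igfbp1 at -121 to -115 from the start, and these matches overlap no other motif searched. Sites outside these short windows were not searched, so nothing is read from the absence of the other motifs. The window of Ghr is shown because its gene differed most, and those of Igf1 and Igfbp1 because they hold the match, in capitals. They lie at chr2:54432026-54432325 on the minus strand, chr7:24172282-24172581 on the plus strand and chr14:86261027-86261326 on the plus strand, and each is written 5' to 3' along its gene.
Ghr: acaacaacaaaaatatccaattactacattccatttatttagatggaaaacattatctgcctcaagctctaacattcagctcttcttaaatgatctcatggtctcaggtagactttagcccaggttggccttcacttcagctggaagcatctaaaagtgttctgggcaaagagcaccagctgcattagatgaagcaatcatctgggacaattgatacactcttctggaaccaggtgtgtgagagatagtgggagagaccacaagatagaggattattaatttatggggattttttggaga
Igf1: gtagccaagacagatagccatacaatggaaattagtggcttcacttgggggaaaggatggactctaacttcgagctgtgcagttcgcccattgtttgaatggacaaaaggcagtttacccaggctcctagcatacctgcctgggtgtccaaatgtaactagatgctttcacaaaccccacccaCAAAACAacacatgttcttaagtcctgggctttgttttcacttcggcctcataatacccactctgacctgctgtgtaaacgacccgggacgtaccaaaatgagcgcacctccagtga
Igfbp1: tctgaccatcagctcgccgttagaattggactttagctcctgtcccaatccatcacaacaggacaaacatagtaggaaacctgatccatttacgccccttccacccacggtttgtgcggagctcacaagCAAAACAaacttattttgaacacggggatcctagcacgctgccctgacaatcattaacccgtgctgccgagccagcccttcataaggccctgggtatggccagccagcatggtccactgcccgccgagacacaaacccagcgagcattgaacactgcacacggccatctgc
The Ghr window is 40.0% G and C and holds 0 CpG pairs, where the median over all windows is 51.7% and 7. The Igf1 window has 48.3% and 7, and the Igfbp1 window has 54.0% and 13. The array does not read these windows, and the G and C share of the other 6 matched genes ran from 57.7% in Igfals to 82.7% in Stat5b.

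Downstream of the receptor, the kinase and the transcription factors were dim and overlapped between the diets. Jak2, the kinase bound to the receptor, had signals of 56.0, 58.8, 47.4 and 44.3 in control livers and 13.1, 47.4, 46.2 and 33.4 in persimmon peel livers. Persimmon peel array 1 lay under the level of the brightest bacterial control. The difference was -0.71 (SE 0.33) and was -0.29 without that array, and under the ratio covariate it turned to 1.18. Stat5a had signals of 60.1, 82.8, 61.2 and 90.3 on the control diet and 89.1, 80.6, 100.8 and 76.3 on the persimmon peel diet, a difference of 0.25 (SE 0.17). Stat5b, the main carrier of the growth hormone signal in male rodent liver, had 55.8, 61.4, 57.0 and 70.9 against 63.7, 85.4, 58.0 and 56.1. Its difference was 0.09 (SE 0.17), and -0.04 without persimmon peel array 2, the highest liver. Stat5a and Stat5b are neighbouring, closely similar genes, so signal shared between them is possible and their values are uncertain.

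Socs2, the inhibitor that STAT5 induces and that limits receptor signalling, was the member too dim to test. Its signals were 74.9, 27.7, 39.6 and 2.18 in control livers and 64.3, 21.5, 49.2 and 18.8 in persimmon peel livers, so that livers of 1 diet differed more than the diets did. In the fit with no filter on dim sets its difference was 0.71 (SE 0.86). Without control array 4, the liver at 2.18, it passed the filter and stood at -0.37, so 1 liver set the sign.

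Igf1, the hormone made under this signal, lay between 89.6% and 107% of its control level on its 3 probe sets. On 1370333_a_at the control livers had 6955, 6582, 6954 and 7122, and the persimmon peel livers had 6874, 6567, 7810 and 7201. The difference was 0.04 (SE 0.06), or 103% of control. On 1382599_at the values were 2560.1, 2361, 2629 and 2632 against 2647, 2501, 3188 and 2591, a difference of 0.10 (SE 0.08). On 1388469_at they were 5606, 4853, 5195 and 5788 against 4653.5, 4677, 4873 and 4965, a difference of -0.16 (SE 0.07), or 89.6% of control. On the first 2 sets persimmon peel array 3 was the highest of the 8 livers, whereas on 1388469_at the persimmon peel livers lay low and overlapped the control livers only through control array 2. Quantile normalization moved the 3 differences to 0.15, 0.16 and -0.08. The difference on 1370333_a_at was -0.0051 and that on 1382599_at 0.02 without persimmon peel array 3.

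Of the carriers of IGF1, Igfals overlapped between the diets. It encodes the acid-labile subunit of the circulating complex. Its signals were 1302, 1055, 1143 and 1067 on the control diet and 1392, 1017, 1796 and 1268 on the persimmon peel diet, with means of 1141 ± 114 and 1368 ± 325 (SD, n = 4 each). The difference was 0.24 (SE 0.14), and 0.10 without persimmon peel array 3, the highest liver.

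Igfbp3, the main binding protein of the circulating complex, had overlapping diets on both of its sets. The set 1367652_at gave 318.7, 344.6, 291.3 and 423 against 330.0, 316, 472 and 374, a difference of 0.11 (SE 0.14), which was -0.0075 without persimmon peel array 3. The set 1386881_at gave 159, 121, 156 and 147 against 145, 175, 217 and 135, a difference of 0.19 (SE 0.15), and 0.06 without persimmon peel array 3. In liver Igfbp3 is known as a product of the nonparenchymal cells more than of hepatocytes. Of the nonparenchymal markers, the median difference was 0.12 for Kupffer cells, -0.05 for sinusoidal endothelial cells and -0.18 for stellate cells, and the summed signals of each overlapped between the diets. Their part in the Igfbp3 values was not tested.

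Igfbp1, a binding protein that insulin represses and fasting induces, and a neighbour of Igfbp3 in the genome, had overlapping diets. Its signals were 5492, 3929, 3736 and 3319 in control livers and 2842, 3772, 3356 and 3655 in persimmon peel livers, a difference of -0.26 (SE 0.13). Control array 1 was the highest and persimmon peel array 1 the lowest of the 8 livers, and without the former the difference was -0.11. The feeding state at sampling is not given in the sources used here.

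Igfbp2, a second binding protein that falls with growth hormone action, was dim, and its diets were apart. Its signals were 57.4, 55.4, 38.5 and 55.8 in control livers and 67.1, 58.8, 103.9 and 64.2 in persimmon peel livers. The diets did not overlap, although persimmon peel array 2 stood just above control array 1. The means were 51.8 ± 8.88 and 73.5 ± 20.5 (SD, n = 4 each), a difference of 0.49 (SE 0.20), 0.31 without persimmon peel array 3 and 0.02 with the beta-actin ratio as a covariate.

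Persimmon peel array 3 was the highest of the 8 arrays in 7 of the 13 tested sets, namely those of Stat5a, Igfals, Igfbp2, both of Igfbp3 and both Igf1 sets named above. Over all tested sets this array was highest in 38.3%, and after each array was centred on its median the numbers were 6 of the 13 sets and 16.9% of all. The same liver was the lowest of the 8 on 1368924_at of Ghr. The highest liver for 6 hormone and carrier sets was therefore also the lowest for that receptor set.

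Ratios between probe sets of the same gene separated the diets in Ghr and, where 1388469_at was one of the sets, in Igf1. How often such ratios separate the diets over all genes of the array was not counted, so this is not read as particular to these genes. The log2 ratio of 1368924_at to 1373803_a_at of Ghr was -1.37, -1.37, -1.49 and -1.24 in control livers and -2.25, -1.63, -2.61 and -2.27 in persimmon peel livers. All persimmon peel livers were lower, with means of -1.37 ± 0.10 and -2.19 ± 0.41 (SD, n = 4 each). For Igf1 the ratio of 1388469_at to 1370333_a_at was -0.31, -0.44, -0.42 and -0.30 in control livers and -0.56, -0.49, -0.68 and -0.54 in persimmon peel livers, again without overlap. The ratio of 1382599_at to 1370333_a_at overlapped, with means of -1.44 ± 0.03 and -1.38 ± 0.07 (SD, n = 4 each), as did that of the Igfbp3 sets, at -1.23 ± 0.33 and -1.16 ± 0.25. The ratio of 1382599_at to 1388469_at was higher in every persimmon peel liver, at -1.07 ± 0.07 and -0.82 ± 0.15. Of the control transcripts, the middle to 3' ratio of beta-actin was apart between the diets by -0.30, and that of GAPDH was -0.58 ± 0.03 and -0.59 ± 0.05 with overlap. The 5' to 3' ratio of beta-actin differed by -0.28 in its means and also did not overlap. Its diets nearly met, however, at -1.822 in control array 1 and -1.823 in persimmon peel array 1. The 5' to 3' ratio of GAPDH was -0.29 ± 0.10 and -0.43 ± 0.08 with overlap. Persimmon peel array 2 was the closest of its diet to the control livers in the Ghr ratio, in that of 1388469_at to 1370333_a_at of Igf1 and in the middle to 3' ratio of beta-actin, but not in the other Igf1 ratios or in the 5' to 3' ratio of beta-actin. These ratios show unequal differences of sets of 1 gene, and the part of RNA quality in them was not tested.

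**Figure D4:**
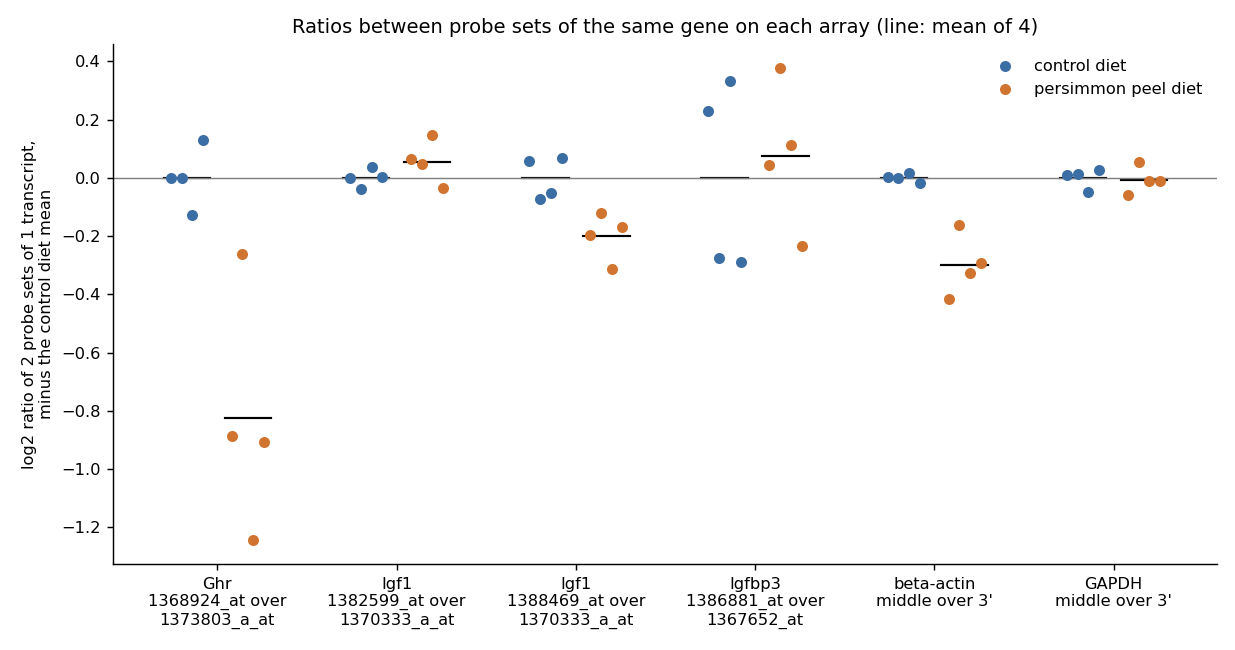
Log2 ratio of 2 probe sets of the same gene on each array, minus the mean of the control diet, for Ghr, Igf1, Igfbp3 and the control transcripts beta-actin and GAPDH, with the mean of each diet as a line. The persimmon peel arrays lie wholly below the control arrays for Ghr, for 1388469_at over 1370333_a_at of Igf1 and for beta-actin.

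The rest of the pathway was read through 3 lists of other genes, each gene by its tested set with the highest mean signal. Of 80 genes listed, 71 were on the array and 55 were tested. Of these 55, 3 were called lower and 0 called higher on the persimmon peel diet. Over all 9174 tested genes 1.93% were called lower and 0.469% higher. At an unadjusted p under 0.05, limma gave 8 lower and 4 higher of the 55, beside 9.48% lower and 6.80% higher of all tested genes. The median difference was -0.06 over the 55 genes and 0.01 over all tested genes. The fall of Slco1a1, among the 3, was known when its list was written, so nothing is read from these counts.

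Of 19 tested genes of receptor signalling, 1 was called lower, the Src-family kinase gene Lyn. Its signal went from 171 ± 10.3 to 122 ± 15.7 (SD, n = 4 each), a difference of -0.50 (SE 0.12, adjusted p = 0.0297 in limma). The call was lost with no filter (adjusted p = 0.0559), with the replicate number as a block (0.0649), without any 1 of control arrays 1, 3 and 4 or persimmon peel arrays 1, 3 and 4, and without persimmon peel arrays 1 and 3 together (0.199). It was also lost in a plain test per set and with the ratio covariate, as were those of Slco1a1 and Hao2 below. In the covariate fit these genes and all tested sets of the axis had the same adjusted p, so nothing is read from calls lost there. A dimmer set of Lyn stood at 0.39 (adjusted p = 0.318). The insulin and IGF adaptor gene Irs2 (-0.39, SE 0.16, adjusted p = 0.188), the phosphatase gene Ptpn11 (-0.17, adjusted p = 0.324) and the kinase gene Jak1 (-0.12, adjusted p = 0.414) were not called. The STAT5-induced inhibitor Cish, a close relative of Socs2, was at -0.01 (SE 0.28). It was singled out after its value was seen.

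Of 11 tested genes for IGF ligands, receptors, binding proteins and their processing, 0 were called by this rule, and 4 had an unadjusted p under 0.05 in limma. The receptor that clears IGF2, Igf2r, went from 418 ± 13.6 to 519 ± 64.1 (SD, n = 4 each; difference 0.30, SE 0.10, adjusted p = 0.11), while its dimmer set was at -0.04. The proprotein convertase gene Furin went from 755 ± 23.9 to 926 ± 120 (SD, n = 4 each; difference 0.29, SE 0.10, adjusted p = 0.113). Both passed under quantile normalization (adjusted p = 0.0323 and 0.0247) and without persimmon peel array 2 (0.0378 and 0.0499). Igfbp7, a low-affinity relative of the IGF binding proteins, was at -0.30 (SE 0.13, adjusted p = 0.216).

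Of 25 tested genes in the list of growth hormone dependent and sex-patterned liver genes, 2 were called lower. The list also holds general hepatocyte transcription factors such as Hnf4a and Foxa2. Slco1a1, an organic anion uptake carrier, went from 1308 ± 159 to 929 ± 76.4 (SD, n = 4 each; difference -0.49, SE 0.10, adjusted p = 0.0114). This fall was known when the list was written. It stayed called in every fit that left out 1 array and was lost without persimmon peel arrays 1 and 3 together (-0.39, adjusted p = 0.134). Hao2, a peroxisomal hydroxyacid oxidase, went from 4273 ± 409 to 3270.5 ± 333 (SD, n = 4 each; difference -0.39, SE 0.09, adjusted p = 0.0215). Its call was lost under quantile normalization (adjusted p = 0.0586), with no filter (0.0749), with no intensity trend (0.0985), without control array 1 or 4 or persimmon peel array 1 or 3, and without persimmon peel arrays 1 and 3 together (0.22).

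The cytochrome P450 genes Cyp3a18 (-0.54, SE 0.17, adjusted p = 0.0749) and Cyp3a2 (-0.13, adjusted p = 0.231) were not called, although Cyp3a18 was with the replicate block (0.0159) and without persimmon peel array 3 (0.0228). The 3 sets of Hnf4a, a hepatocyte transcription factor, stood at 0.23, -0.15 and -0.38, none of them called. The male-patterned Cyp2c11 was at -0.09 (SE 0.05) and the female-patterned Cyp2c12 at 0.09 (SE 0.12), both not called and singled out after their values were seen. In this list 18 differences were negative and 7 positive, with a median of -0.08, where 4348 were negative and 4826 positive over all tested genes. The list mixes male-patterned and female-patterned genes, so these signs do not give a direction of growth hormone action. All 9 hepatocyte markers also had negative differences, with a median of -0.09, and their part in the values of this list was not tested.

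**Figure D5:**
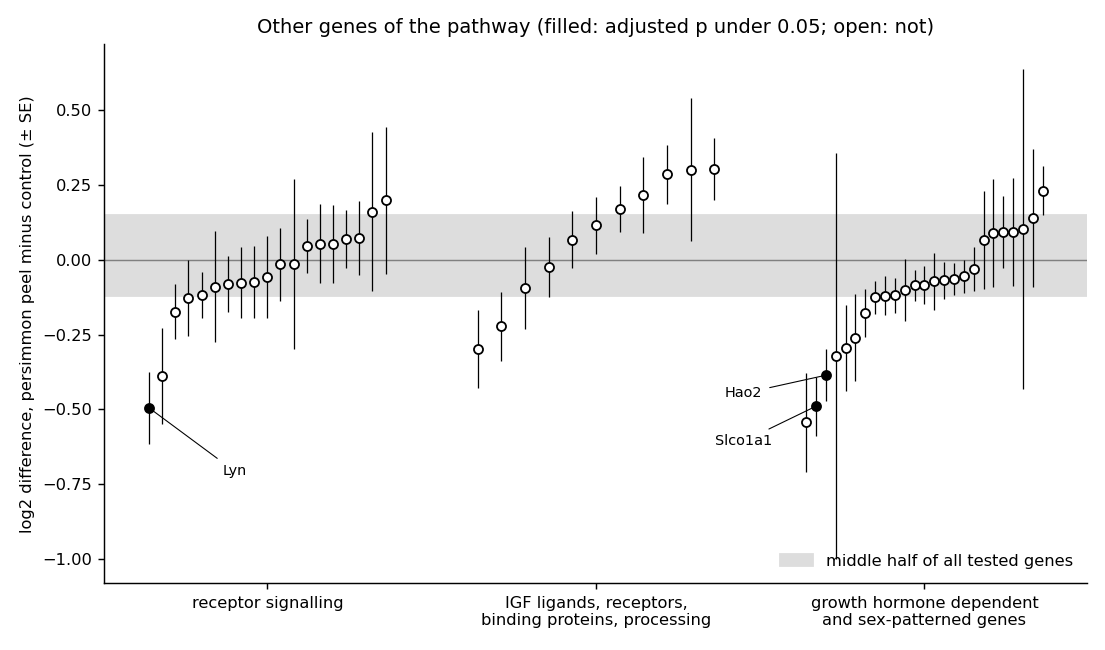
Difference between the diets (log2, with SE) of 55 other genes of the pathway in 3 lists, ordered by size within a list, with called genes filled and a grey band from the lower to the upper quartile of all 9174 tested genes. Lyn at -0.50, Slco1a1 at -0.49 and Hao2 at -0.39 are filled.

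Over all 79 tested sets of these 55 genes 7 were called, all lower, where 4.53% of all tested sets were called lower and 0.425% higher. The set of Slco1a1, whose fall was known beforehand, is among the 7, so nothing is read from this count. Of the 7, 4 were dimmer sets in 3 genes whose brightest set was not called, chosen here after their values were seen. They were Jak1 (-0.81, SE 0.13, adjusted p = 0.00372), the ubiquitin ligase gene Nedd4 (-1.09 and -1.57, adjusted p = 0.00355 for both in limma) and the RNA-binding protein gene Igf2bp3 (-0.90, SE 0.16, adjusted p = 0.0066). The brightest sets of the same genes stood at -0.12, -0.09 and -0.02.

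The probe sets most like those of Ghr over the 8 arrays were found by the root mean square difference of log2 values, each set centred on its own mean. For 1368924_at they were sets of Usp47 (0.0803), Pdha1 (0.0857) and Tmed2 (0.0874), all called lower, by -0.96, -1.08 and -0.99. For 1373803_a_at they were sets of Sdc2 (0.0315), Scp2 (0.0376) and Arpc5 (0.0406), at -0.21, -0.18 and -0.19 and not called. For the Igf1 set 1370333_a_at they were Tpi1 (0.0268), Fam3a (0.031) and Bsg (0.0339), at 0.02, 0.02 and 0.07. The 3 sets of other genes nearest to each Ghr set thus differed between the diets by about as much as that set did, which follows from how likeness was measured.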

How the data were processed

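Total RNA of 8 livers, 4 per diet, was hybridised to 1-colour arrays, and each array was taken as 1 animal, as the design text gives 4 rats per diet. The authors deposited linear intensity values made with MAS5, per the submitters' processing notes. No source used here states the version, the scaling target or the detection calls. The values were used as deposited, in log2, with no pseudocount. Of 31042 probe sets other than 57 control sets, 20826 had 1 gene symbol, and symbols were updated by gene number through RefSeq GRCr8. The dimmest 50% by mean log2 value were left out, so that 15521 sets, down to a mean signal of 34.4, were tested, among them 13 of the 14 of the axis.

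The diets were compared with limma 3.58.1 (R 4.3.3), lmFit and eBayes (trend on), two-sided, Benjamini-Hochberg adjusted over all tested sets. The fit was also run on simulated data with independent noise in each set and array. Those data lacked shifts shared by the sets of an array, so nothing is read from that run. Depth does not apply to arrays, and 4 per diet limits the precision. The genes, lists, motifs and alternatives were chosen with earlier results of these data known. The rule named every set of the axis, each called gene of the 3 lists with the 3 of smallest p not called, and the 3 nearest genes in pattern. Alternatives were no filter, the upper 30% by signal, a pseudocount of 16, median centring, quantile normalization, no trend, a plain test per set, a replicate block, each array left out, any tested set of a gene, and, chosen after seeing earlier results, the beta-actin ratio as a covariate and leaving out persimmon peel arrays 1 and 3.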

Additional observations from a re-analysis of the deposited data

Results flagged for a closer look

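Of 52 groups of 4 livers, the 2 diets for each set of the axis and each named gene of the lists, 4 held a liver far from the other 3 on the log2 scale. Chance gives this in about 1 in 20 groups. Igfbp2 in control array 3, at 38.5, lay below the other control livers. Lyn in control array 2, at 155, and Cyp3a2 in control array 3, at 7789, were also low. Hnf4a in persimmon peel array 3, at 3878, was high.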

How the results depend on the processing

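The call of 1368924_at of Ghr was known when the axis was chosen, so its course over the settings is a description and supports nothing. The count of called sets of the axis was 0 in the plain test per set and with the beta-actin ratio covariate, and 1 in the other settings. All tested sets of the axis had the same adjusted p under that covariate, so the count there is not particular to Ghr. Of 231 values of the axis' sets under other settings, 219 moved by less than the spread between livers. Of the 231, 13 changed sign, 7 of them under that covariate. Settings that change only the SE or the choice of tested sets leave the difference as in the reported fit. The 219 therefore include values that could not move, and nothing is read from that number. The larger moves all fell under the beta-actin ratio covariate, except that of 1370333_a_at of Igf1 under quantile normalization. Genes of the lists called lower, 3 in the reported fit, numbered 1 with no filter, 0 with the plain test, 0 with the covariate, 0 without persimmon peel arrays 1 and 3, 6 by any tested set of a gene, and 1 to 3 with single arrays left out (1 without control array 1 or 4 or persimmon peel array 1). Genes called higher numbered 3 under quantile normalization (Igf2r, Furin and, named after its value was seen, Igfbp4) and 0 to 2 with single arrays left out (2 without persimmon peel array 2). With the covariate Igf2r turned to -0.079 and Irs2 to 0.48. The cause was not tested for these changes, other than fewer arrays or a different set of tested probe sets where the setting itself brings them. With the replicate number as a block, 1 set of the axis and 3 genes of the lists were called, with Cyp3a18 in place of Lyn. The numbers do not pair the livers: deviations of same-numbered arrays correlated between -0.08 and 0.05, and of the control arrays only array 3 correlated best with the persimmon peel array of its own number.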
